A study of Mus musculus with 6 samples.

Results

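Astrocytes release proteins that promote the formation or maturation of synapses, and 9 genes of such proteins were followed in hippocampal astrocytes after microglia had been ablated. The genes were the thrombospondins *Thbs1*, *Thbs2*, *Thbs3* and *Thbs4*, *Sparc* and its relative *Sparcl1* (hevin), the glypicans *Gpc4* and *Gpc6*, and *Chrdl1* (chordin-like 1). They were chosen by name, for what their proteins are known to do, from the 24421 genes listed, and each had a row in the CPM and TPM tables. Earlier results of these data were known when the choice was made. RNA came from astrocytes isolated from the hippocampus by magnetic sorting (MACS) with an antibody to the astrocyte surface antigen ACSA-2, after CD11b+ microglia had been removed on a column. All mice were C57BL/6 and carried *Siglech* dtr/dtr, in which both copies of the microglial gene *Siglech* hold the diphtheria toxin (DT) receptor. The PBS group had 3 libraries of mice injected with PBS, and the DT group had 3 libraries of mice injected with DT at 50 µg/kg. Each library was a pool of 2 mice sampled 2 days after the injection, and per the study's methods the mice were adult males. No mice without the dtr allele received DT for these libraries, so an action of DT itself and of the loss of microglia cannot be told apart.

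Thrombospondins are large matrix glycoproteins that promote the formation of structurally normal excitatory synapses and act through the neuronal calcium channel subunit α2δ-1, the product of *Cacna2d1*. Hevin promotes the formation of excitatory synapses, whereas SPARC opposes the synaptogenic action of hevin. Glypicans 4 and 6 are heparan sulfate proteoglycans that recruit AMPA-type glutamate receptors to new synapses, and chordin-like 1, a secreted antagonist of bone morphogenetic proteins, promotes the maturation of AMPA receptors at existing synapses.

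Libraries held 21704891 to 32933975 reads assigned to genes. *Gfap*, an intermediate filament gene of reactive astrocytes, was higher in DT libraries (3887 to 4527 TPM against 994 to 1252 TPM, log2 fold change 1.93, limma adjusted p = 8.20e-05). *Siglech* was at 1.14, 2.62 and 2.36 TPM in the PBS libraries and at 0 in each DT library. The summed TPM of 15 astrocyte markers was 36634 to 37965 in PBS and 38558 to 41604 in DT libraries, whereas that of 20 microglia markers was 355 to 459 and 209 to 234. The 15 astrocyte markers include *Gfap* (means of 1109 TPM in PBS and 4238 TPM in DT), so the higher DT sums hold its rise. Of the 15, 8 had log2 fold changes above and 7 below 0, with a median of 0.03. Across 15137 genes tested, 84 were higher (0.555%) and 24 lower (0.159%) after DT, and the median log2 fold change was -0.0052. In bulk RNA of this kind, fewer cells of a type and less RNA per cell cannot be told apart. The p-values measure the spread between pools of mice.

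Whether ablation of microglia altered the expression of the synaptogenic factors was asked gene by gene. After DT, the 9 genes kept the order of levels they had after PBS, from hevin at the top to *Thbs1* at the bottom. All 9 genes entered the test, and 0 passed an adjusted p of 0.05, where 0.713% of all genes did (limma on log2(CPM + 0.1)). At an unadjusted p under 0.05 stood 1 of the 9 genes, *Thbs2*, against 10.4% of all genes. On recovered reads, the edgeR quasi-likelihood test also had 0 of the 9 genes past the adjusted and 1 past the unadjusted threshold, against 0.733% and 10.3% of all genes. The edgeR exact test had 0 and 1 (1.74% and 9.07% of all genes), and DESeq2 had 0 and 2, *Thbs2* and *Sparcl1* (2.15% and 9.78%). Log2 fold changes (DT minus PBS) were above 0 for 6 genes and below 0 for 3, with a median of 0.10, and 48.7% of all genes tested were above 0. The median was 0.010 without DT replicate 1 and 0.16 without DT replicate 2. The 95% intervals reached from -0.85 for *Sparc* to 1.24 for *Gpc6*, so that a change within these bounds was not detectable with 3 libraries a group.

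**Figure D1:**
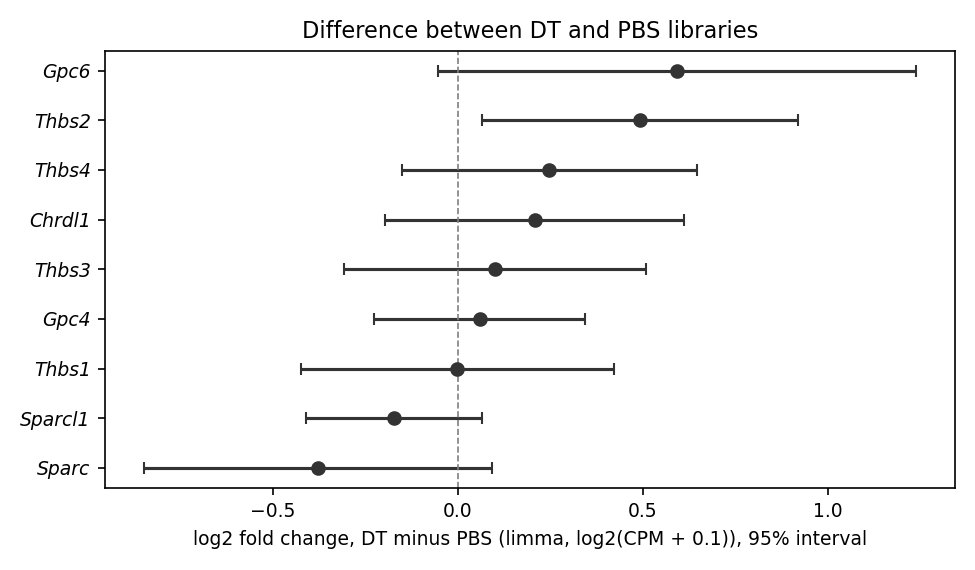
Log2 fold change of each of the 9 genes (DT minus PBS, limma on log2(CPM + 0.1)), with points at the estimate and bars for the 95% interval, 3 libraries a group. The interval of *Thbs2* (0.07 to 0.92) lies above 0 and the others cross 0; after adjustment over 15137 genes none of the 9 passed.

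Hevin dominated this group of genes. *Sparcl1* stood at rank 2 or 3 of all listed genes by TPM in each library and made up 95.5% to 96.1% of the summed TPM of the 9 genes in PBS libraries and 95.4% to 96.9% in DT libraries. Together the 9 genes held 1.74% to 1.87% of all TPM in PBS and 1.53% to 1.71% in DT libraries. The order by mean TPM, a level scaled for gene length, was the same in both groups and ran *Sparcl1*, *Sparc*, *Thbs4*, *Chrdl1*, *Gpc6*, *Gpc4*, *Thbs3*, *Thbs2* and *Thbs1*. In PBS libraries, *Sparcl1* was 28.2 times as high as *Sparc*, and *Sparc* was 10.5 times as high as *Thbs4*. Ranges of neighbours in the order overlapped in PBS libraries for *Chrdl1* and *Gpc6*, for *Gpc6* and *Gpc4* and for *Gpc4* and *Thbs3*, so these neighbours did not differ beyond their spread. In DT libraries, the ranges of *Chrdl1* and *Gpc6* and those of *Gpc4* and *Thbs3* overlapped, whereas *Gpc6* lay above *Gpc4* in each library.

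**Figure D2:**
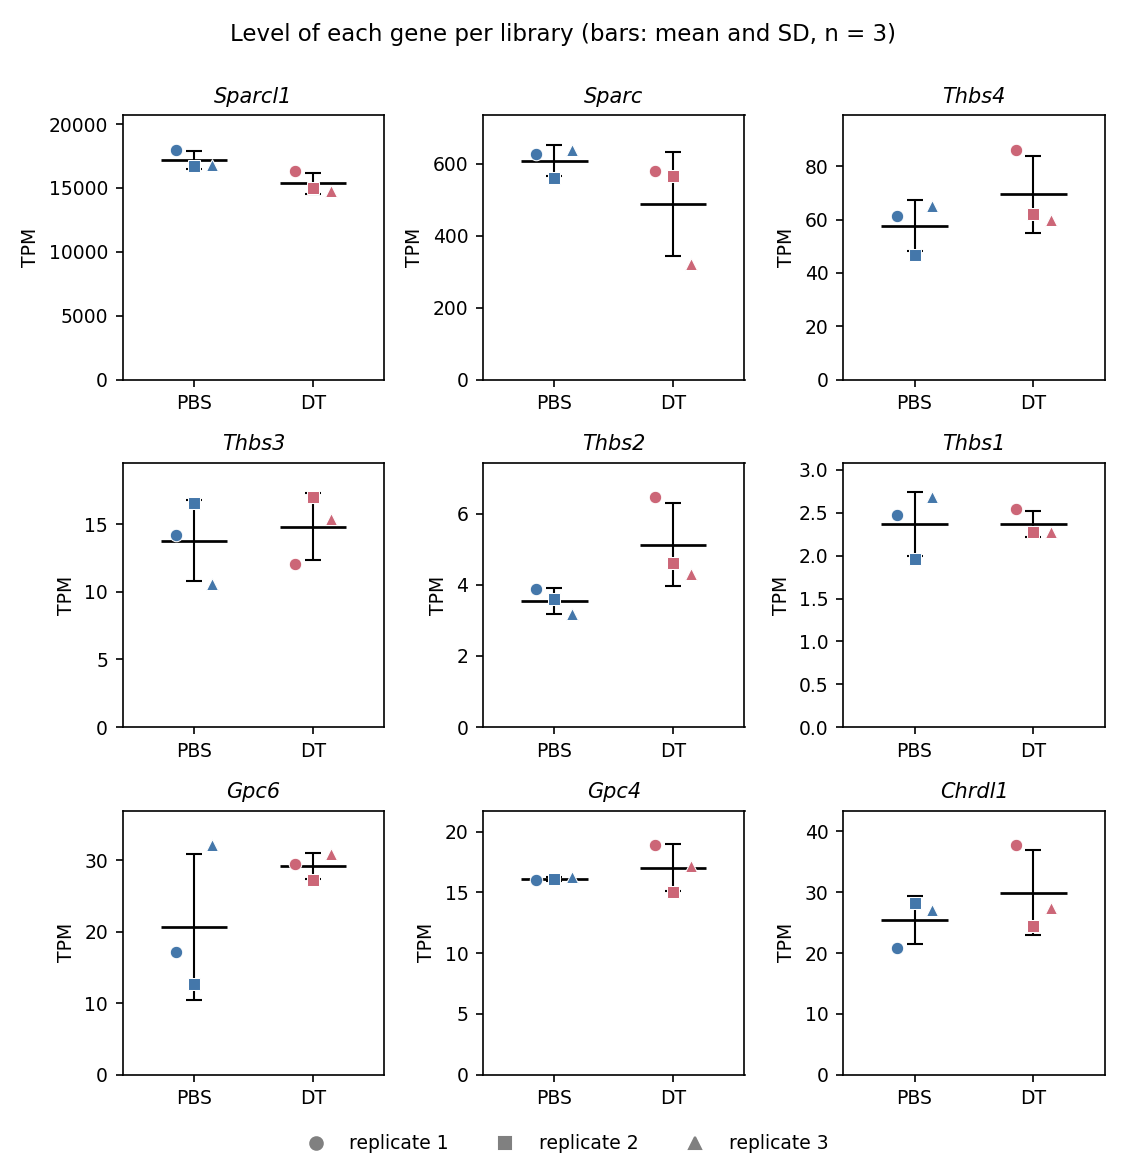
TPM of the 9 genes in each library (symbols mark the replicate number), with a line at the mean and bars for the SD of 3 libraries, each axis starting at 0. *Thbs2* and *Sparcl1* show no overlap between groups, *Sparc* has a low DT replicate 3 (321 TPM), and the PBS libraries of *Gpc6* spread from 12.6 to 32.1 TPM.

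*Sparcl1* (chromosome 5, 104079111 to 104113733, minus strand, mm10) encodes hevin, a secreted matricellular protein. In PBS replicates 1, 2 and 3 it was at 17978, 16717 and 16798 TPM, and in DT replicates 1, 2 and 3 at 16322, 15014 and 14775 TPM. Each DT library was thus below each PBS library in TPM, as for 6.65% of all genes tested, whereas in CPM the groups overlapped, with 17606 in DT replicate 1 and 17489 in PBS replicate 2. Means were 17164 ± 706 and 15370 ± 833 TPM (SD, n = 3). The log2 fold change was -0.17 (SE 0.10, 95% interval -0.41 to 0.06, limma adjusted p = 0.617). An exact two-sided permutation test of TPM gave p = 0.1, the smallest p that 3 against 3 libraries allow. The gene drew 355279 to 580139 reads a library.

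*Sparc* (chromosome 11, 55394500 to 55423183, minus strand) encodes the matricellular protein that counteracts hevin. Its level was 628, 560 and 638 TPM in PBS replicates 1, 2 and 3 and 580, 565 and 321 TPM in DT replicates 1, 2 and 3. DT replicate 3 was low and the other DT libraries lay within the PBS range, so the groups overlapped. Means were 609 ± 42.5 and 488 ± 145 TPM (SD, n = 3). The log2 fold change was -0.38 (SE 0.21, 95% interval -0.85 to 0.09, limma adjusted p = 0.575). It was -0.10 without DT replicate 3 and -0.54 without DT replicate 1, and the exact permutation p of TPM was 0.3.

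Endothelial cells and microglia are also known to express *Sparc*, so their markers were summed in the same libraries. All 15 endothelial markers had log2 fold changes below 0, none called, with sums of 1287 to 1904 TPM in PBS and 1134 to 1360 TPM in DT libraries and no marker at 0. DT replicate 3, the library low in *Sparc*, had the highest endothelial sum of the DT libraries. Of the 20 microglia markers, all were below 0 and 9 were called lower, and *Siglech* alone was at 0 in each DT library. Microglia sums were 234, 209 and 215 TPM in DT replicates 1, 2 and 3, which did not set replicate 3 apart. DT replicate 3 had the highest sum of 10 ependymal markers (1597 TPM, against 714 to 986 TPM in the other libraries) and the lowest sum of 10 oligodendrocyte markers (424 TPM, against 510 to 627 TPM). The part of these cells in the *Sparc* values was not tested.

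*Thbs4* (chromosome 13, 92751590 to 92794818, minus strand) encodes a pentameric thrombospondin and was the main thrombospondin RNA, with 67.9% to 79.8% of thrombospondin TPM in PBS and 72.3% to 80.4% in DT libraries. It was at 61.4, 46.8 and 65.1 TPM in PBS replicates 1, 2 and 3 and at 86.2, 62.2 and 60.05 TPM in DT replicates 1, 2 and 3. DT replicate 1 was the highest and PBS replicate 2 the lowest library, and the groups overlapped. Means were 57.8 ± 9.65 and 69.5 ± 14.5 TPM (SD, n = 3), and DT exceeded PBS by 0.25 on the log2 scale (SE 0.17, 95% interval -0.15 to 0.65, limma adjusted p = 0.670). That difference was 0.067 without DT replicate 1 and 0.092 without PBS replicate 2.

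*Thbs2* (chromosome 17, 14665500 to 14694235, minus strand) encodes a trimeric thrombospondin and was the gene of the 9 whose DT and PBS libraries separated on both scales. It was at 3.89, 3.59 and 3.17 TPM in PBS replicates 1, 2 and 3 and at 6.45, 4.61 and 4.31 TPM in DT replicates 1, 2 and 3. Each DT library exceeded each PBS library, as was the case for 8.75% of all genes tested in CPM and 9.5% in TPM. Means were 3.55 ± 0.360 and 5.12 ± 1.16 TPM (SD, n = 3), from 140 to 304 reads a library. The log2 fold change was 0.49 (SE 0.19, 95% interval 0.07 to 0.92, limma unadjusted p = 0.0286, adjusted p = 0.419), and the exact permutation p of TPM was 0.1. The difference therefore failed the correction over all genes. Over the alternatives its adjusted p was 0.204 to 0.572, and leaving out single libraries moved the log2 fold change between 0.30, without DT replicate 1, and 0.61. The unadjusted limma p of *Thbs2* was itself above 0.05 in TPM (0.0504) and with quantile normalization (0.0554). It was also above 0.05 without PBS replicate 2 (0.0591), PBS replicate 3 (0.0866) or DT replicate 1 (0.103).

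Vascular and meningeal cells are known sources of *Thbs1* and *Thbs2*. Sums of 11 pericyte and mural markers were 937 to 1432 TPM in PBS and 1106 to 1534 TPM in DT libraries, with 6 above and 5 below 0, none called and none at 0. Sums of 10 meningeal fibroblast markers were 164 to 236 and 176 to 249 TPM, with 6 above and 4 below 0, none called and none at 0. Both sums were highest in DT replicate 3, whereas *Thbs2* was highest in DT replicate 1. For other cell types, log2 fold changes were above 0 for 8 of 8 tested border-associated macrophage markers, whose sums were 24.4 to 39.5 TPM in PBS and 71.8 to 93.1 TPM in DT libraries. The same held for 10 of 10 ependymal markers, with sums of 714 to 889 TPM in PBS and 952 to 1597 TPM in DT libraries that did not overlap. All 10 choroid plexus markers were above 0 as well, but their sums of 157 to 2264 and 1416 to 3807 TPM overlapped. The choroid plexus sums were 3807, 2659 and 1416 TPM in DT replicates 1, 2 and 3, the same order as *Thbs2*. In PBS replicates 1, 2 and 3 they were 479, 2264 and 157 TPM, an order unlike that of *Thbs2*. Among DT libraries, the macrophage sum was highest in replicate 2 and the ependymal sum in replicate 3. Among the markers of these other cell types, 3 macrophage markers (*Mrc1*, *Lyve1* and *F13a1*) and 0 ependymal and 0 choroid plexus markers were called, and the macrophage markers *Ms4a7* and *Cbr2* were at 0 in at least 1 library. Their part in the *Thbs2* values was not tested.

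*Thbs1* and *Thbs3* showed no difference between the groups that exceeded the spread of the libraries. *Thbs1* (chromosome 2, 118111876 to 118127133, plus strand), which encodes another trimeric thrombospondin, was at 2.48, 1.96 and 2.68 TPM in PBS replicates and at 2.55, 2.28 and 2.28 TPM in DT replicates 1, 2 and 3. Its means were 2.37 ± 0.373 and 2.37 ± 0.155 TPM (SD, n = 3), with a 95% interval of -0.42 to 0.42 for the log2 fold change (limma adjusted p = 0.999). *Thbs3* (chromosome 3, 89215180 to 89226837, plus strand), a pentameric thrombospondin, was at 14.2, 16.6 and 10.6 TPM in PBS replicates and at 12.1, 17.0 and 15.4 TPM in DT replicates 1, 2 and 3. Its log2 fold change was 0.10 (SE 0.18, 95% interval -0.31 to 0.51, limma adjusted p = 0.888), and it was -0.076 without PBS replicate 3. Exons of *Thbs3* overlap those of *Mtx1* on the opposite strand, and those of *Thbs1* overlap a long noncoding RNA on the opposite strand. Reads had been mapped with their strand, per the study's methods, but whether the gene quantification kept overlapping genes apart by strand was not given in the sources used here. Summed over the 4 genes, thrombospondin TPM was 69.0 to 81.9 in PBS and 82.0 to 107 in DT libraries. These ranges lay edge to edge without overlap (81.92 in PBS replicate 1, 82.04 in DT replicate 3). Most of the sum was *Thbs4*, whose own groups overlapped. Among single genes, 9.5% of those tested had each DT library above each PBS library in TPM.

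*Gpc6* (chromosome 14, 116925315 to 117976544, plus strand) encodes glypican 6 and varied most between libraries, by 2.58-fold from the lowest to the highest. It was at 17.2, 12.6 and 32.1 TPM in PBS replicates 1, 2 and 3 and at 29.4, 27.2 and 30.9 TPM in DT replicates 1, 2 and 3. The DT libraries lay close together, whereas PBS replicate 3 was the highest of all libraries and the other PBS libraries were the lowest. Means were 20.7 ± 10.2 and 29.2 ± 1.83 TPM (SD, n = 3). The log2 fold change was 0.59 (SE 0.28, 95% interval -0.05 to 1.24, limma adjusted p = 0.517), and the exact permutation p of TPM was 0.4. Without PBS replicate 2 it was 0.28. Without PBS replicate 3 it was 0.97 with a limma adjusted p of 0.0491, and over the alternatives the adjusted p was 0.0491 to 0.833. The call thus turned on PBS replicate 3, and the spread of *Gpc6* within groups exceeded that of 92.2% of the genes tested. The gene drew 880 to 1890 reads a library.

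The genes whose log2 levels followed *Gpc6* most closely over the 6 libraries were *Lyar* (Pearson r = 0.99), *Pcdhb21* (r = 0.99) and *Fam98b* (r = 0.98), and 44 of the 15137 genes tested had r of at least 0.95. These are descriptions over libraries that share groups and scaling, and the named genes were picked for this likeness. How many genes would reach such an r without any relation was not computed, so nothing is concluded from the count. *Lyar* encodes a nucleolar protein and *Pcdhb21* a clustered protocadherin. *Pcdhb21* was at 2.90, 2.53 and 4.32 CPM in PBS and 4.28, 4.16 and 4.49 CPM in DT replicates 1, 2 and 3, with PBS replicate 3 beside the DT libraries as for *Gpc6*.

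*Gpc4* (chromosome X, 52053021 to 52165252, minus strand) encodes glypican 4 and was far steadier. The PBS replicates were at 16.0, 16.1 and 16.3 TPM and the DT replicates at 18.9, 15.03 and 17.2 TPM. The PBS libraries lay inside the range of the DT libraries. Means were 16.1 ± 0.153 and 17.0 ± 1.95 TPM (SD, n = 3), and the log2 fold change was 0.06 (SE 0.12, 95% interval -0.23 to 0.35, limma adjusted p = 0.908). It was -0.034 without DT replicate 1.

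*Chrdl1* (chromosome X, 143285674 to 143394262, minus strand) was at 20.9, 28.3 and 27.1 TPM in PBS replicates 1, 2 and 3 and at 37.8, 24.4 and 27.5 TPM in DT replicates 1, 2 and 3. DT replicate 1 was the highest and PBS replicate 1 the lowest, with the other libraries of both groups between 24.4 and 28.3 TPM. Means were 25.4 ± 3.98 and 29.9 ± 6.99 TPM (SD, n = 3), and the log2 fold change was 0.21 (SE 0.18, 95% interval -0.20 to 0.61, limma adjusted p = 0.737). It was 0.010 without DT replicate 1, 0.085 without PBS replicate 1 and 0.35 without DT replicate 2.

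Ratios within a library do not depend on the scaling between libraries, and 3 were compared. The log2 ratio of thrombospondin TPM to *Sparcl1* was -7.78, -7.92 and -7.69 in PBS replicates 1, 2 and 3 and -7.25, -7.45 and -7.49 in DT replicates 1, 2 and 3. Each DT library had more thrombospondin RNA per hevin RNA than each PBS library, with a difference of 0.40 between the means (exact permutation p = 0.1, the smallest possible, 0.3 after Benjamini-Hochberg adjustment over the 3 ratios). This separation had to follow from the TPM given above and is no further result. Thrombospondin TPM was higher in each DT library, by a narrow margin (82.04 against 81.92), and *Sparcl1* TPM was lower in each. For the antagonists hevin and SPARC, the log2 ratio was 4.84, 4.90 and 4.72 in PBS and 4.82, 4.73 and 5.53 in DT replicates 1, 2 and 3. DT replicate 3 stood apart, and the difference of 0.21 (exact permutation p = 0.8) became -0.045 without it. The log2 ratio of *Gpc4* to *Gpc6* was -0.11, 0.35 and -0.98 in PBS and -0.64, -0.86 and -0.84 in DT replicates 1, 2 and 3 (difference -0.53, exact permutation p = 0.4), and the PBS libraries lay on both sides of the DT libraries. This difference was -0.24 without PBS replicate 2 and -0.90 without PBS replicate 3.

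**Figure D3:**
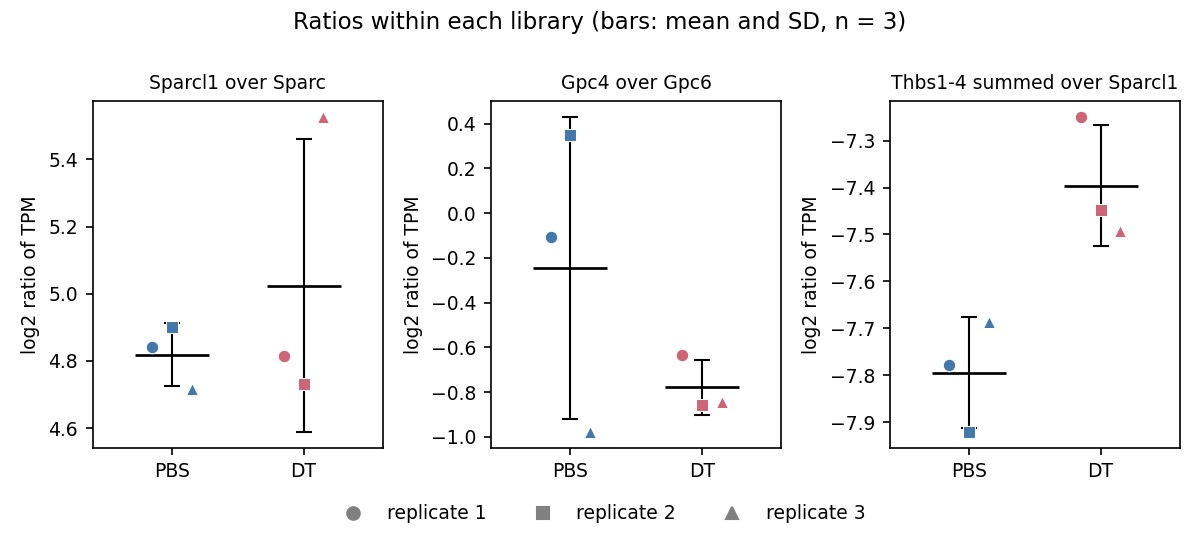
Log2 ratios of TPM within each library for *Sparcl1* over *Sparc*, *Gpc4* over *Gpc6* and the summed thrombospondins over *Sparcl1*, with a line at the mean and bars for the SD of 3 libraries; axes do not start at 0. The thrombospondin ratio separates the groups (PBS -7.92 to -7.69, DT -7.49 to -7.25), as its numerator and denominator already do in TPM, whereas the others overlap.

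Single libraries recurred among these values. DT replicate 1 was the highest of the 6 libraries for 4 of the 9 genes (*Thbs2*, *Thbs4*, *Gpc4* and *Chrdl1*), as it was for 16.3% of all genes tested. It was the highest DT library for 7 of the 9, against 36.9% of all genes tested. PBS replicate 2 was the lowest PBS library for 6 of the 9, against 31.9% of all genes tested. DT replicate 3 was the lowest of the 6 libraries for *Sparc* and *Sparcl1*. The astrocyte marker sum was also highest in DT replicate 1 (41604 TPM) and lowest in PBS replicate 2 (36634 TPM). That sum includes *Gfap*, at 4527 TPM in DT replicate 1 and 1080 TPM in PBS replicate 2, so this order rests in part on *Gfap*. The part of the sum in these values was not tested.

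Relatives of the 9 genes in the same families showed which member of each family these astrocytes expressed most. Hevin led the SPARC family, with *Spock2* (365 TPM over the 6 libraries), which encodes a proteoglycan of the testican group, *Fstl1* (84.7 TPM), a secreted follistatin-like protein, and *Smoc1* (47.2 TPM), a basement membrane protein, below *Sparc*. Among glypicans, *Gpc5* was far above *Gpc6* and *Gpc4*, with 617, 663 and 575 TPM in PBS and 588, 556 and 510 TPM in DT replicates 1, 2 and 3 (log2 fold change -0.18, limma adjusted p = 0.483). *Gpc1* was at 34.2 TPM, *Gpc2* at 9.70 TPM and *Gpc3* at 9.01 TPM. *Chrd*, which encodes the BMP antagonist chordin, was at 8.44 TPM, below *Chrdl1*. The remaining relatives were *Spock1* at 6.32 TPM, *Smoc2* at 4.12 TPM and *Spock3* at 2.89 TPM, and *Chrdl2* and the fifth thrombospondin *Comp* were too low to be tested.

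Of 11 relatives tested, 6 had log2 fold changes above and 5 below 0, with a median of 0.02 and 0 called. At an unadjusted p under 0.05 were 4 of the 11, against 10.4% of all genes, in a list chosen with earlier results of these data known. These were *Fstl1* (0.23, limma adjusted p = 0.286) and *Smoc1* (0.51, limma adjusted p = 0.231), with DT libraries above PBS libraries as for 8.75% of all genes, and *Spock2* (-0.39, limma adjusted p = 0.374) and *Gpc2* (-0.41, limma adjusted p = 0.424), with DT libraries below PBS libraries as for 7.57% of all genes. *Smoc1* was at 48.1, 36.7 and 32.2 TPM in PBS replicates and at 52.3, 56.4 and 57.7 TPM in DT replicates 1, 2 and 3.

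**Figure D4:**
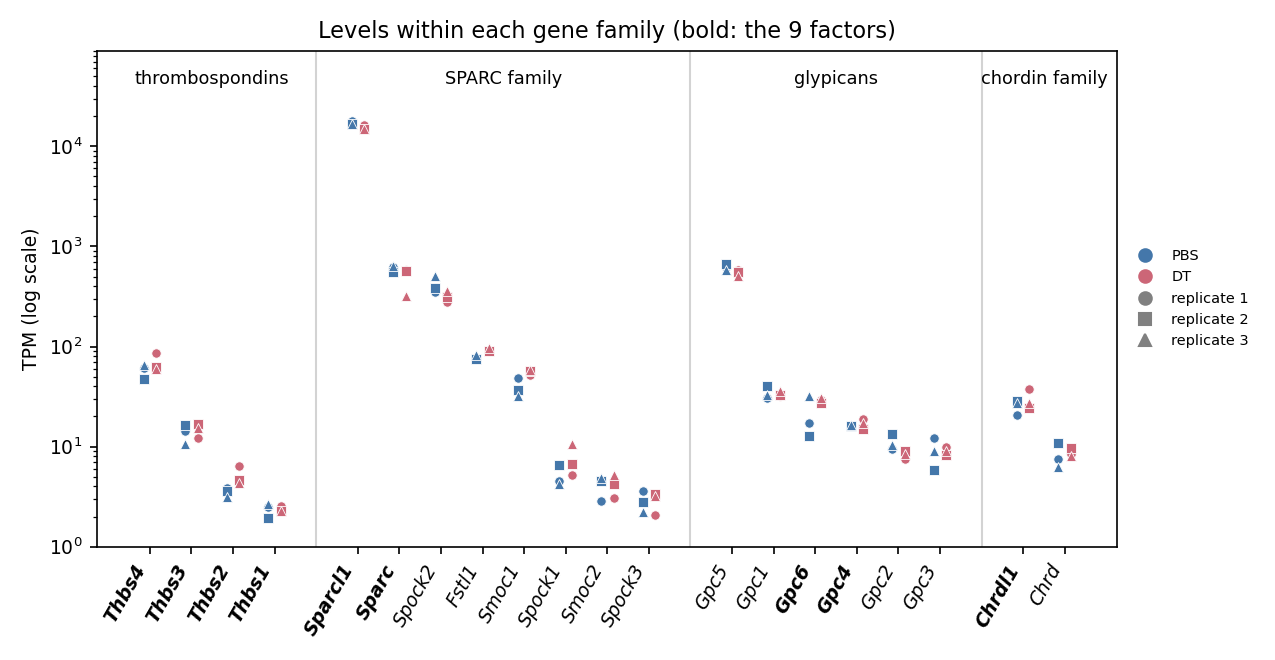
TPM per library on a log axis for the 9 genes (bold) and their family relatives with a mean of at least 1 TPM, PBS in blue and DT in red, with symbols for the replicate number. *Sparcl1* lies above all others, *Gpc5* (585 TPM over the 6 libraries) lies far above *Gpc6* and *Gpc4*, and *Thbs4* leads the thrombospondins.

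Receptors and partners of the 9 proteins act mostly on neurons, but astrocytes also express several of them. All 25 genes of this list were tested, 16 above and 9 below 0, with a median log2 fold change of 0.09 and 0 called. Among the highest were *Lrp1* (387 TPM over the 6 libraries), a scavenger receptor that takes up thrombospondins, and *Ptprs* (278 TPM), a receptor phosphatase that binds heparan sulfate. *Cacna2d1* was at 11.7 ± 1.27 TPM in PBS and 12.9 ± 1.82 TPM in DT libraries (SD, n = 3). At an unadjusted p under 0.05 were 2 of the 25, or 8% against 10.4% of all genes, *Ptprs* (log2 fold change 0.17, limma adjusted p = 0.349) and the thrombospondin receptor *Cd36* (2.03, limma adjusted p = 0.426), a low gene at 0 to 54 reads a library.

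Some genes of this list varied between libraries of a group. *Nlgn1* (neuroligin 1), a postsynaptic adhesion protein gene, was at 73.4, 30.7 and 30.4 TPM in PBS and 75.4, 64.1 and 60.7 TPM in DT replicates 1, 2 and 3, and PBS replicate 1 lay with the DT libraries. The log2 fold change of *Nlgn1* was 0.72 (limma adjusted p = 0.483). *Nptxr*, the neuronal pentraxin receptor, was at 13.7 TPM in DT replicate 3, the library low in *Sparc*, and at 34.8 to 56.8 TPM elsewhere. The values of *Nptxr*, *Nlgn1* and *Cacna2d1* were picked after they had been seen.

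Glypicans carry heparan sulfate chains, and 21 of 22 genes that build, modify or release these proteins and chains were tested. Of these, 11 were above and 10 below 0, with a median log2 fold change of 0.03 and 0 called. The highest were *Gpld1* (201 TPM), the phospholipase that cleaves the membrane anchor of glypicans, and *B3gat3* (85.8 TPM) and *Xylt1* (83.8 TPM), enzymes of the linker that joins the chain to the protein, and each had overlapping groups. At an unadjusted p under 0.05 were 2 of the 21 genes, both above 0 as for 5.91% of all genes, *Hs6st1* (0.32, limma adjusted p = 0.181), a 6-O-sulfotransferase, and *Sulf1* (1.16, limma adjusted p = 0.186), which removes 6-O-sulfates. *Sulf1* was at 6.13, 10.96 and 4.58 TPM in PBS and 17.9, 17.1 and 11.8 TPM in DT replicates 1, 2 and 3. Each DT library of *Hs6st1* and *Sulf1* was above each PBS library, as for 8.75% of all genes tested.

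Other modulators of synapses from astrocytes were listed beside the 9 genes. Of 22 genes, 21 were tested, 8 above and 13 below 0, with a median log2 fold change of -0.16 and 0 called. *Apoe* (44150 TPM over the 6 libraries), a lipid carrier that supplies cholesterol, *Clu* (8425 TPM), a secreted chaperone, and *Cst3* (8280 TPM), a protease inhibitor, were the highest. *Apoe* stood above *Sparcl1*, and *Clu* and *Cst3* below it. At an unadjusted p under 0.05 were 11 of the 21, against 10.4% of all genes, of which 5 were above 0 and 6 below 0 (5.91% and 4.51% of all genes). The 5 above 0 were *Clu* (log2 fold change 0.19), *Ndp* (0.21), which encodes the Wnt agonist norrin, the pentraxin gene *Ptx3* (1.83), the neurotrophin gene *Bdnf* (1.17) and the cytokine gene *Tnf* (2.43), with limma adjusted p of 0.125 to 0.473. *Ptx3* was at 0.765, 2.60 and 2.35 TPM in PBS and 7.92, 7.495 and 4.98 TPM in DT replicates 1, 2 and 3, and *Tnf*, at 0 to 55 reads a library, was at 0 in PBS replicate 1. The 6 below 0 included the perineuronal net proteoglycan genes *Bcan* (-0.32), *Ncan* (-0.17) and *Vcan* (-0.31), the net protein gene *Tnr* (-0.30) and *Mfge8* (-0.25), a bridge to engulfed cells. None of the 11 passed the adjusted threshold, nearest of them *Mertk*, a receptor with which astrocytes engulf synapses and debris (log2 fold change -0.34, limma adjusted p = 0.0644). *Mertk* was at 432, 405 and 414 TPM in PBS and 341, 338 and 319 TPM in DT replicates 1, 2 and 3, and these 11 genes were named after their values had been seen. Groups did not overlap for 9 of the 21 genes, against 16.3% of all genes tested. The list itself was chosen with earlier results of these data known, so no conclusion is drawn from its shares beside those of all genes.

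**Figure D5:**
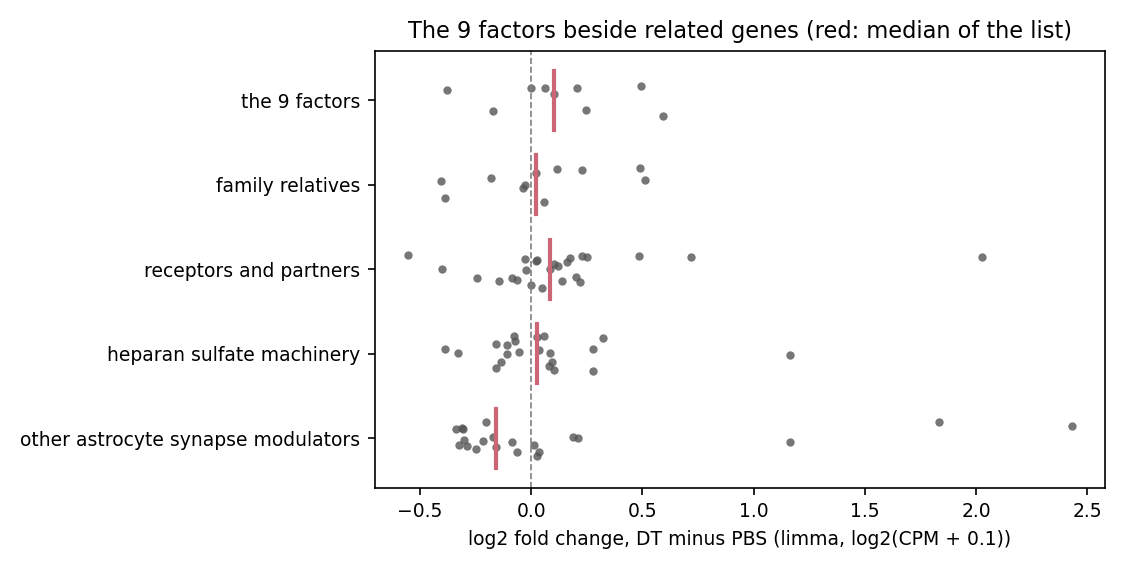
Log2 fold change (DT minus PBS, limma on log2(CPM + 0.1)) of each tested gene in the 5 lists, 1 point a gene, with a red line at the list's median. Medians run from -0.16 for the other modulators to 0.10 for the 9 genes, against -0.0052 over all genes tested.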

How the data were processed

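RNA of MACS-isolated hippocampal astrocytes was sequenced in 3 PBS and 3 DT libraries. The authors trimmed reads with Trim Galore 0.5.0, mapped them to mm10 with HISAT2 2.1.0, removed ribosomal reads with bedtools 2.25.0, quantified genes with StringTie 1.3.5 and compared groups with edgeR 3.24.3. They deposited CPM and TPM per gene and library. The deposited CPM signal had been computed against library sizes times a TMM factor (0.974 to 1.02), and 100% of its values were whole reads within 0.001 CPM, which gave the read counts. The authors also deposited p-values and q-values of their comparison, with its log2 fold changes, and none of these was used. Of the deposited gene names, 27 read as dates.

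The design had assumed plain CPM. Genes whose CPM averaged 0.5 or more over the libraries were tested on log2(CPM + 0.1) by limma 3.58.1 under R 4.3.3 (variance trend, two-sided, Benjamini-Hochberg over all genes tested, threshold 0.05, 95% intervals). Levels were compared between genes in TPM only. Ratios and TPM were compared with exact permutation tests in SciPy 1.17.1. Alternatives were pseudocounts of 0.5 and 1, quantile normalization, TPM in place of CPM, a filter at a mean of 2 CPM or none, a fit without the trend, a block for the replicate number, leaving out each library, and edgeR 4.0.16 and DESeq2 1.42.0 on recovered reads. The tests were checked on simulated data. Chi-square per degree of freedom between replicates of the same group was 15.2 to 21.3, so no library was a repeat of another in its group. Pairs of a PBS and a DT library were not compared in this way. Coordinates are those of GENCODE M21 (mm10).

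The 9 genes and the related lists were chosen with earlier results of these data known. Apart from the 9 genes, the text names the 3 highest genes by TPM of each related list, family relatives with at least 1 TPM, called genes of those lists, the sole members of counts of 5 or fewer, and for the gene with the widest range the 3 genes most correlated with it. Among the receptors and partners, 1 gene that this rule names is not reported here.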

Additional observations from a re-analysis of the deposited data

How the results depend on the processing

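None of the 9 genes passed the threshold in the 11 alternatives other than leaving out a library, and 0 to 1 passed without single libraries, the 1 being *Gpc6* without PBS replicate 3. Leaving out single libraries gave log2 fold changes of -0.14 to 0.091 for *Thbs1*, -0.076 to 0.23 for *Thbs3*, -0.034 to 0.16 for *Gpc4*, 0.28 to 0.97 for *Gpc6* and a ratio difference of -0.045 to 0.35 for *Sparcl1* to *Sparc*, so the directions of *Thbs1*, *Thbs3*, *Gpc4* and that ratio were not stable. The log2 fold change of *Thbs1* was 0.0083 in TPM. *Sparcl1* held rank 4 by CPM in each library, and quantile normalization gave it a log2 fold change of 0.0 by construction. Over all genes, 84 higher and 24 lower calls became 35 and 11 without a variance trend, 191 and 72 with the edgeR exact test, 227 and 98 with DESeq2, and 39 to 72 and 9 to 20 without single libraries. The cause was not tested.

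With the replicate number as a block, the calls were 79 higher and 30 lower, with none among the 9 genes, and *Thbs2*, *Sparcl1* and *Gpc6* had unadjusted p under 0.05 (limma adjusted p = 0.204, 0.238 and 0.274). Deviations of same-numbered libraries correlated by 0.12, 0.011 and 0.12, and those of differently numbered libraries by -0.12 to 0.011. Replicates 1 and 3 correlated best with their own number, but PBS replicate 2 and DT replicate 2 did not, by a narrow margin. Per the study's methods, the pools came from independent experiments, but the labels do not say whether a number marks a shared one. The numbers were therefore not shown to pair the libraries. Depth limits *Thbs1*, at 103 to 136 reads a library, more than the other genes.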
